A study of Mus musculus with 10 samples.

Results

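Innate-like T cells are T lymphocytes that leave the thymus already equipped to secrete cytokines, and 8 genes linked to them and to the SLAM receptors were followed here in mature thymocytes: Slamf1, Slamf6, Ly9, Cd244a, Sh2d1a, Cd1d1, Zbtb16 and Il17rb. They were 8 of the 22957 genes listed in the short-read files, and each was represented by its RefSeq transcript and by every assembled spliced transcript that shared an intron with that gene only. The study compared 2 lineages from C57BL/6 mice of 6 to 8 weeks, with no mutation or treatment named, and asked how their splicing differs. CD8SP cells were depleted of CD4-bearing cells with magnetic beads and sorted as CD8+CD4-TCRβ+CD24-. CD4SP cells were depleted of CD8-bearing cells and sorted as CD4+CD8-TCRβ+CD24-. Each sample pooled 2 or 3 thymi, and no gate for CD1d tetramer, NK1.1 or other marks of innate-like cells was named beyond the coreceptor, TCRβ and CD24 gates. Each lineage had 1 long-read library and 4 short-read samples that differ only by sequencing lane, and the short-read values of a lineage were deposited as 1 pooled file. There was therefore 1 value per gene and lineage, no replicate and no test, and every difference below is a description of these pools.

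SLAM receptors are surface proteins of T and other blood cells, most of which bind the same receptor on a neighbouring cell. The tails of many of them carry tyrosine-based switch motifs that can recruit the adaptor SAP, encoded by Sh2d1a, and SAP in turn brings in the kinase Fyn. Invariant natural killer T cells are selected in the thymus by lipid antigens on CD1d, the product of Cd1d1, shown to them by double-positive thymocytes. SLAM signals between those thymocytes are needed for the lineage, and the transcription factor PLZF, encoded by Zbtb16, installs its effector programme. Mouse invariant natural killer T cells carry CD4 or neither coreceptor, and a subset responds to interleukin-25 through the receptor encoded by Il17rb.

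The finding shown by sequence is a choice between coding ends of Slamf6, so its sequences are given first. Slamf6, also called Ly108, lies on the plus strand of chromosome 1 (RefSeq transcript NM_030710, 171917537 to 171943868, GRCm38, 8 exons). The stretches below are written 5′ to 3′ from GENCODE M21 transcripts, on the plus strand. In exons 6 and 7, numbered as in the GENCODE transcript with the distal tail, capitals mark the codons that match the switch motif. In the tails, which follow exon 7 and end the coding sequence, capitals mark the stop codon. Exon 6 lies at chr1:171939396-171939469, exon 7 at chr1:171941625-171941696, the start of the proximal tail at chr1:171942578-171942592 and the start of the distal tail at chr1:171947999-171948073.
Slamf6 exon 6: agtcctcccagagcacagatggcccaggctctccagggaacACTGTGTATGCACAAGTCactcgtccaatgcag
Slamf6 exon 7: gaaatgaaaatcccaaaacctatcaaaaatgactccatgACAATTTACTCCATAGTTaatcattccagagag
Slamf6 proximal tail: gccgaatactctTAA
Slamf6 distal tail: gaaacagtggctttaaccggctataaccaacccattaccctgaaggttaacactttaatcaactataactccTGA

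The proximal tail adds 4 codons before its stop and is the end of the RefSeq transcript. The distal tail adds 24 codons before its stop, is followed by a further non-coding exon, and ends another GENCODE transcript. The coding sequence holds 331 codons with the proximal tail and 351 codons with the distal tail, and both hold 2 switch motifs. Another GENCODE form joins exon 6 to the distal tail without exon 7, holds 327 codons and keeps 1 switch motif. The motif was searched as codons in frame on the coding strand (threonine, any, tyrosine, any, any, then valine or isoleucine), and no other motif was searched with it. It occurred in 3528 of 44525 complete coding sequences of GENCODE (7.92%) and in 6 of 1198 coding exons of 72 bases (0.501%). A match is a description of the letters and not a shown binding site.

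Exon 7 of Slamf6 was joined mainly to the distal tail in CD8SP cells and mainly to the proximal tail in CD4SP cells. Levels are in FPKM, a fragment count corrected for the length of the transcript and the depth of the library. The 1 assembled transcript per lineage that joins exon 7 to the distal tail had 10.5 FPKM in CD8SP cells against 1.93 FPKM in CD4SP cells. The RefSeq transcript, which joins exon 7 to the proximal tail, had 4.20 FPKM in CD8SP cells and 6.01 FPKM in CD4SP cells. Of the FPKM with either join, the distal tail took 71.4% in CD8SP cells and 24.3% in CD4SP cells, a difference of 47.2 percentage points. The ends of the deposited intervals least favourable to the difference gave 68.0% in CD8SP cells and 27.8% in CD4SP cells, so the shares did not overlap within these intervals. The intervals come with the files and cover the estimate of each transcript only, not differences between mice. A further 1.81 FPKM in CD4SP cells, and 0 FPKM in CD8SP cells, joined exon 7 to an acceptor outside GENCODE. With that join counted, the distal tail took 71.4% in CD8SP cells and 19.8% in CD4SP cells.

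Further transcripts reached the distal exons by other paths. In CD8SP cells these summed to 3.50 FPKM, of which 2.13 FPKM skipped exon 7, and in CD4SP cells to 2.27 FPKM. The CD4SP ones, and the rest of the CD8SP ones, run through retained or unannotated stretches, and a CD4SP transcript of 0.434 FPKM enters the proximal exon before the distal ones, so no coding end was read from them. Of the CD8SP transcripts that skip exon 7, one of 0.713 FPKM has only 4 exons. It starts inside an intron and retains the intron before exon 6. Counted by distal exons alone, the distal share was 76.9% in CD8SP cells and 41.1% in CD4SP cells. The CD4SP transcript of 0.434 FPKM retains the intron before the distal tail and was counted in the 2.27 FPKM and in this share. A CD4SP transcript of 0.831 FPKM that retains the same intron was left out of both. Counting it would raise the CD4SP share. No transcript that skips exon 7, which holds one of the motifs, was listed in CD4SP cells. Skipping took 11.7% of the donor of exon 6 in CD8SP cells and 0% in CD4SP cells, and the interval of the skipping transcripts in CD8SP cells ran from 1.71 to 2.55 FPKM. These splice choices were singled out after their values were seen.

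**Figure D1:**
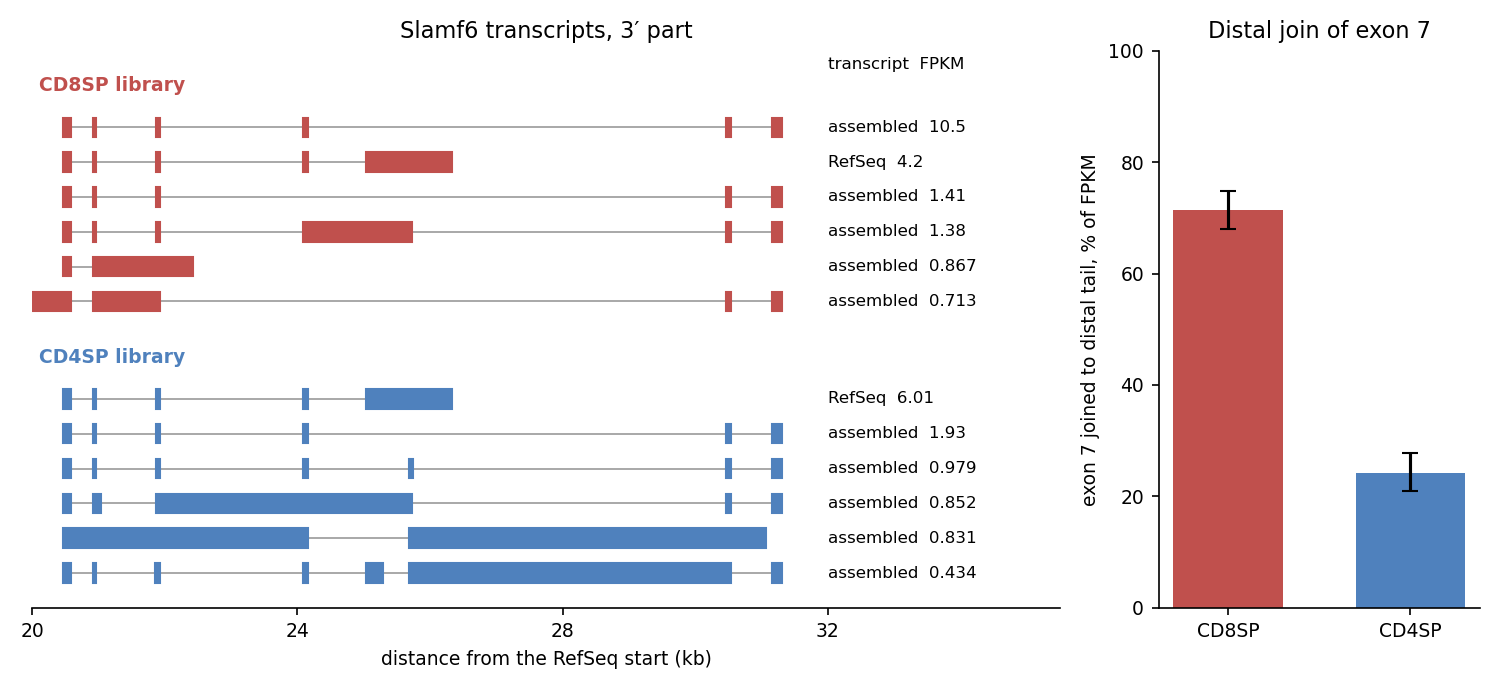
Left, the Slamf6 transcripts above 0 FPKM in the CD8SP file (top, red) and the CD4SP file (bottom, blue), drawn from 20 kb after the RefSeq start, with boxes for exons, lines for introns and the FPKM of each at the right. Right, the share of the distal tail in the FPKM of transcripts that join exon 7 to either tail, 71.4% in CD8SP and 24.3% in CD4SP cells, with bars that join the least and most favourable ends of the deposited intervals.

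Read as a whole gene, Slamf6 stood at 19.1 FPKM in CD8SP cells (interval 17.2 to 20.9) against 11.0 FPKM in CD4SP cells (9.98 to 12.1). That is a log2 ratio of CD8SP over CD4SP of 0.78, with a pseudocount of 0.1 FPKM, and the intervals did not overlap. A gene was called when its higher value was at least 1 FPKM, the log2 ratio was at least 1 in size and the summed intervals were separate, so Slamf6 was not called. The RefSeq transcript alone went the other way, with 4.20 FPKM in CD8SP cells and 6.01 FPKM in CD4SP cells (log2 ratio -0.51), since the distal forms in these files are assembled transcripts. The RefSeq form was 22.0% of the gene in CD8SP cells and 54.5% in CD4SP cells. The other 6 introns of the RefSeq transcript carried more in CD8SP cells than in CD4SP cells, and the last one, which leads to the proximal tail, carried less.

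Across the 8 genes, 6 reached 1 FPKM in a lineage and 1 was called, Il17rb, higher in CD4SP cells. Over all genes, 1419 of 9615 at this level were called, which is 14.8%. By direction, 9.99% were called higher in CD8SP cells and 4.76% higher in CD4SP cells, so 1 of 6 is near the background and says nothing about the genes as a set. The median log2 ratio of the 6 was -0.01, against 0.22 over all genes tested. Among genes at 1 FPKM or more in both lineages the median was 0.21, a shift toward CD8SP cells that several ratios below should be read against. With CD8SP scaled to remove it, 50.6% of all called genes were higher in CD8SP cells, against 67.7% unscaled. In CD8SP cells the order of levels ran Ly9, Slamf6, Sh2d1a, Cd1d1, Slamf1, Il17rb, Cd244a and Zbtb16. Neighbours in that order with overlapping intervals were Sh2d1a and Cd1d1, Cd1d1 and Slamf1, and Cd244a and Zbtb16. In CD4SP cells it ran Ly9, Slamf6, Slamf1, Sh2d1a, Cd1d1, Il17rb, Zbtb16 and Cd244a, and the intervals of Slamf6, Slamf1 and Sh2d1a overlapped.

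**Figure D2:**
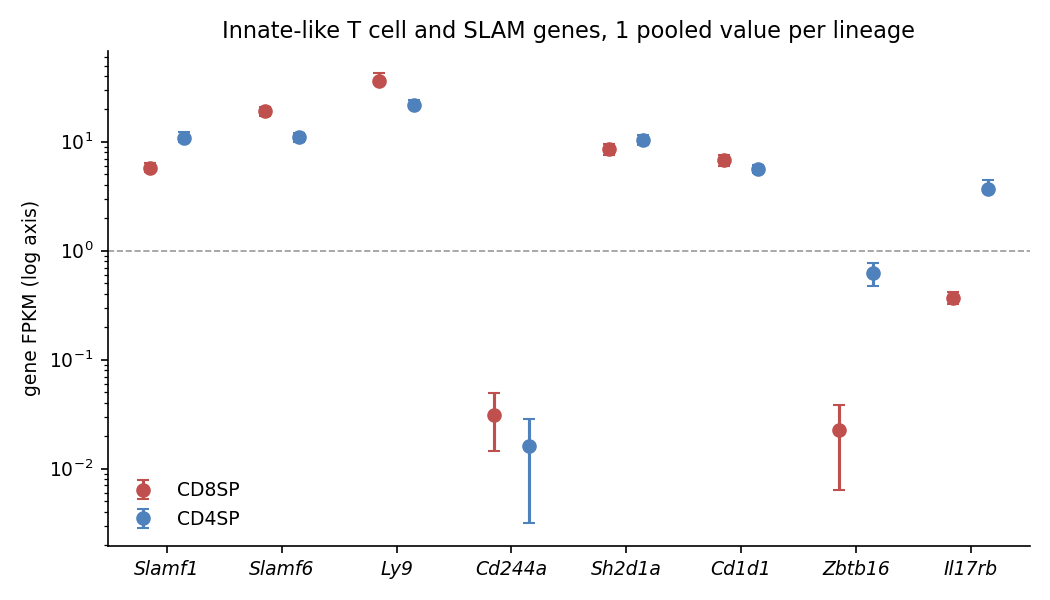
Gene FPKM on a log axis in CD8SP (red, left of each pair) and CD4SP cells (blue), with the summed deposited intervals as bars and a dashed line at 1 FPKM. Zbtb16 and Cd244a stayed under the line in both lineages, and Il17rb crossed it in CD4SP cells alone, at 3.66 FPKM.

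Il17rb, which encodes a subunit of the interleukin-25 receptor, was about 10-fold lower in CD8SP cells. The gene lies on the minus strand of chromosome 14 (NM_019583, 29996168 to 30008896, 11 exons). It had 0.365 FPKM in CD8SP cells (interval 0.324 to 0.416) against 3.66 FPKM in CD4SP cells (3.43 to 4.43), a log2 ratio of -3.02 and a 10.03-fold higher value in CD4SP cells, with 8.24 to 13.7-fold between the ends of the intervals. The RefSeq transcript was listed at 0 in CD8SP cells, with an interval up to 0.00991 FPKM, against 2.90 FPKM in CD4SP cells, where its deposited coverage was 35.3. The whole CD8SP value came from 1 assembled transcript of 11731 bases that holds 6 of the 10 RefSeq introns and runs on past the 3′ end of the gene into the span of Actr8. The 2 assembled CD4SP transcripts, of 0.453 and 0.309 FPKM, also ran past both ends of the gene. In a bulk pool, fewer cells of a type and less RNA per cell cannot be told apart.

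The start of Il17rb faces that of Chdh, which encodes choline dehydrogenase and lies on the opposite strand. The RefSeq gene table starts Chdh at 30008901 on chromosome 14, next to the Il17rb start at 30008896. Chdh, named here after its values were seen, stood at 0.176 FPKM in CD8SP cells and 5.44 FPKM in CD4SP cells, a log2 ratio of -4.33, and was called too. Actr8, on the other side, had 6.83 FPKM in CD8SP cells and 6.03 FPKM in CD4SP cells and was not called. Since strand is not stated for the counting, reads of transcripts that overlap on opposite strands may not be told apart.

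Zbtb16, the gene of PLZF, was at the edge of detection in CD8SP cells and low in CD4SP cells. The gene lies on the minus strand of chromosome 9 (NM_001033324, 48654297 to 48835945, 7 exons). It had 0.0224 FPKM in CD8SP cells (interval 0.00642 to 0.0385) against 0.622 FPKM in CD4SP cells (0.475 to 0.768). The log2 ratio was -2.56, and the untransformed ratio was 27.8-fold higher in CD4SP cells, with 12.3 to 120-fold between the ends of the intervals. The intervals were separate, but both values were under 1 FPKM, so the gene was not tested. With no minimum it was called, as were 15% of 15479 genes in either direction and 6.5% higher in CD4SP cells. The RefSeq coverage behind it was 0.246 in CD8SP cells and 5.88 in CD4SP cells, and all 6 introns carried more in CD4SP cells.

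The other receptors of the gene cluster split between the lineages, and none was called. Slamf1, also called CD150, lies on the plus strand of chromosome 1 (NM_013730, 171767132 to 171801184, 7 exons). It had 5.74 FPKM in CD8SP cells (5.26 to 6.35) against 10.8 FPKM in CD4SP cells (9.91 to 12.3), a log2 ratio of -0.89 with separate intervals. It passed the fold rule after the scaling above, at -1.10, and by exons alone it stood at -0.60. The RefSeq form made up 69.1% of the gene in CD8SP cells and 49.0% in CD4SP cells, and had 3.97 FPKM in CD8SP cells against 5.27 FPKM in CD4SP cells. Much of the remaining CD4SP value came from long assembled transcripts with partial intron chains. Among these, a transcript of 1.65 FPKM lies below its own interval (1.69 to 2.07), so the CD4SP gene sum is uncertain. All 6 RefSeq introns of Slamf1 carried more in CD4SP cells, with log2 ratios from -0.87 to -0.21.

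Slamf1 differed little at exon 5 and at the annotated start of exon 3. With assembled forms 2 of its 10 tested events passed 20 points, against 18.3% over all genes. The first was retention of an intron outside RefSeq (chr1:171775067-171777081), 100% in CD8SP and 64.9% in CD4SP cells, with its spliced form at 0 in CD8SP cells. The other was an assembled acceptor that lengthens exon 4 by 3 bases, used at 20.8% in CD8SP and 0% in CD4SP cells. Its exon 5 (chr1:171792295-171792368) holds a switch motif, in capitals below, and its 74 bases are not a multiple of a codon. It was spliced in at 98.7% in CD8SP cells and 95.5% in CD4SP cells. Exon 3 began at either of a pair of acceptors 5 bases apart, whose extra bases are in capitals below (chr1:171777082-171777105, plus strand). The longer form made up 89.7% in CD8SP cells and 91.8% in CD4SP cells.
Slamf1 exon 5: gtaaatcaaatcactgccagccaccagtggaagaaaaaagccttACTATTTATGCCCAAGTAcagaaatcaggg
Slamf1 exon 3 start: AACAGgtctcccctccagagatta

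Ly9, also called CD229, was the most abundant of the 8 genes in both lineages. It lies on the minus strand of chromosome 1 (NM_008534, 171588613 to 171607360, 10 exons). It had 36.4 FPKM in CD8SP cells (35.3 to 42.5) against 21.7 FPKM in CD4SP cells (20.4 to 24.2), a log2 ratio of 0.74 with separate intervals. All 9 RefSeq introns carried more in CD8SP cells, with log2 ratios from 0.22 to 0.82. The RefSeq transcript had 16.0 FPKM in CD8SP cells and 12.8 FPKM in CD4SP cells, which was 43.9% and 58.8% of the gene in CD8SP and CD4SP cells. A 5-exon assembled fragment of the 3′ part gave a further 9.14 FPKM in CD8SP cells, although the interval given for it runs from 10.1 to 12.8, so the gene sum is uncertain. An exon of 330 bases was spliced in at 98.4% in CD8SP cells and 100% in CD4SP cells. The GENCODE coding sequence of Ly9 held 2 switch motifs.

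Cd244a, whose product 2B4 is a receptor of natural killer and activated CD8 T cells, was barely detected. The gene lies on the plus strand of chromosome 1 (NM_018729, 171559193 to 171585316, 9 exons). It had 0.0308 FPKM in CD8SP cells (0.0146 to 0.0495) and 0.0161 FPKM in CD4SP cells (0.00316 to 0.0284), with overlapping intervals and a coverage of 0.321 in CD8SP cells and 0.184 in CD4SP cells. No difference could be read from values this low. Its GENCODE coding sequence held 4 switch motifs, the most among the members.

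Along chromosome 1 the cluster runs Cd244a, Ly9, Slamf7, Cd48, Slamf1, Cd84 and Slamf6, and genes higher in CD8SP cells stood on both sides of Slamf1 and Cd84. Cd48, which encodes the ligand of 2B4, had 42.8 FPKM in CD8SP cells and 21.8 FPKM in CD4SP cells, a log2 ratio of 0.97 that was just under the fold rule and just over it by exons. Cd84, another self-binding receptor, had 21.8 FPKM in CD8SP cells and 30.4 FPKM in CD4SP cells, a log2 ratio of -0.47. Slamf7 had 1.38 FPKM in CD8SP cells and 1.11 FPKM in CD4SP cells, and its direction turned in the exon-based value. Of the 5 receptors that are not members, 3 reached 1 FPKM and none was called, against 14.8% over all genes. Slamf9 was listed at 0 in both lineages, and Slamf8 at 0 in CD8SP cells and at 0.0203 FPKM in CD4SP cells.

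**Figure D3:**
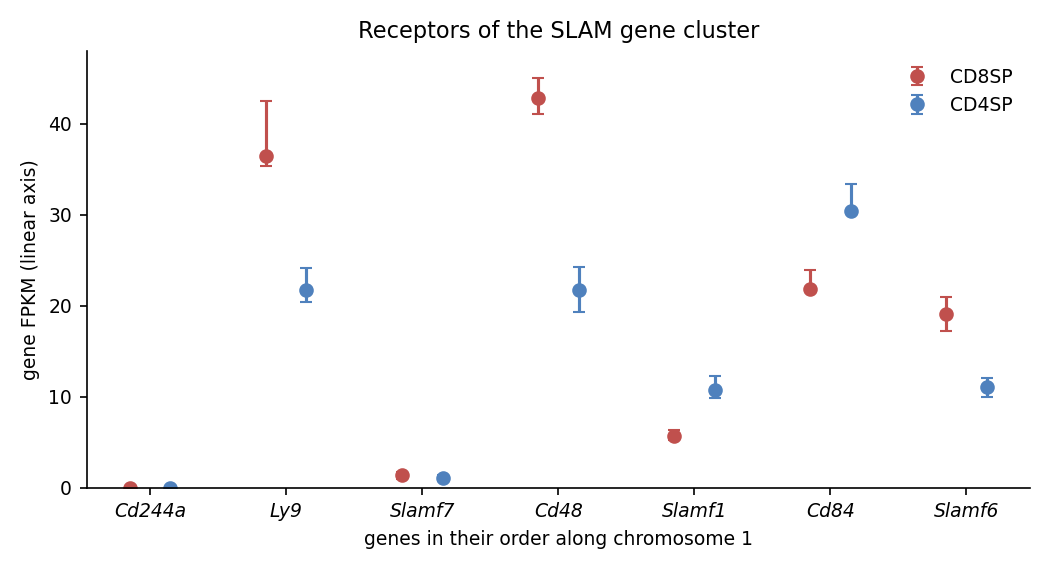
Gene FPKM on a linear axis for the 7 receptors in their order along chromosome 1, CD8SP red and left, CD4SP blue, with the summed deposited intervals as bars. Ly9, Cd48 and Slamf6 were higher in CD8SP cells and Slamf1 and Cd84 in CD4SP cells, and the CD8SP value of Cd84 lies just below its own interval.

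Sh2d1a, the gene of the adaptor SAP, was expressed in both lineages at values whose intervals overlapped. It lies on the plus strand of chromosome X (NM_011364, 42502608 to 42522075, 4 exons). It had 8.55 FPKM in CD8SP cells (7.53 to 9.58) and 10.5 FPKM in CD4SP cells (9.41 to 11.5), a log2 ratio of -0.29. The RefSeq transcript had 7.86 FPKM in CD8SP cells and 7.68 FPKM in CD4SP cells, so the direction turned to 0.03 with RefSeq alone. The rest was a single assembled transcript per lineage, of 0.694 FPKM in CD8SP cells and 2.79 FPKM in CD4SP cells. Of 13 genes of SLAM signalling, 11 reached 1 FPKM and none was called, against 14.8% over all genes. The median log2 ratio of the 11 was 0.19, or -0.02 after scaling. Lck, the kinase that starts T cell receptor signalling, had 134 FPKM in CD8SP cells and 111 FPKM in CD4SP cells. Ptpn6, the phosphatase SHP-1, had 74.0 FPKM in CD8SP cells and 55.8 FPKM in CD4SP cells. Fyn, the kinase that SAP recruits, had 61.0 FPKM in CD8SP cells and 54.4 FPKM in CD4SP cells.

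Cd1d1, which encodes the lipid-presenting molecule, had overlapping intervals in the lineages. It lies on the minus strand of chromosome 3 (NM_007639, 86995836 to 86999340, 6 exons). It had 6.79 FPKM in CD8SP cells (6.01 to 7.58) and 5.64 FPKM in CD4SP cells (5.18 to 6.10), a log2 ratio of 0.26. The direction turned to -0.38 with the RefSeq transcript alone, at 4.31 FPKM in CD8SP cells and 5.64 FPKM in CD4SP cells, and to -0.38 in the exon-based value. Beside the RefSeq transcript the gene sum held 2 assembled transcripts of CD8SP cells, of 1.62 and 0.861 FPKM, which keep introns, and none of CD4SP cells. The exon-based value, which weights transcripts by the RefSeq exon bases they cover, was 5.77 FPKM in CD8SP cells and 7.54 FPKM in CD4SP cells, and the cause of its turn was not tested. The intron at chr3:86998351-86998632 was retained in 23.9% of the summed FPKM in CD8SP cells and 0% in CD4SP cells. Cd1d2, a near-identical neighbour that can share reads, had 0.551 FPKM in CD8SP cells and 1.16 FPKM in CD4SP cells.

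Of 18 genes of CD1d presentation, 17 reached 1 FPKM and none was called, against 14.8% over all genes. The median log2 ratio of the 17 was 0.31, or 0.10 after scaling. B2m, the light chain of CD1d and of class I molecules, had 2505 FPKM in CD8SP cells and 1970.5 FPKM in CD4SP cells. Calr, a chaperone of the endoplasmic reticulum, had 142 FPKM in CD8SP cells and 95.0 FPKM in CD4SP cells. Npc2, a lysosomal lipid carrier, had 100.2 FPKM in CD8SP cells and 66.7 FPKM in CD4SP cells.

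The genes that act beside Zbtb16 and Il17rb in innate-like T cells were called in both directions. Of 20 effector genes, 12 reached 1 FPKM, 2 were called higher in CD8SP cells and 3 higher in CD4SP cells. Over all genes, 9.99% were called higher in CD8SP cells and 4.76% higher in CD4SP cells. The counts of this short list are not read as a result about it. The median log2 ratio of the 12 was 0.10, or -0.10 after scaling. Klrb1c, which encodes the NK1.1 receptor, had 0.268 FPKM in CD8SP cells and 3.26 FPKM in CD4SP cells. Cxcr6, a chemokine receptor, had 27.6 FPKM in CD8SP cells and 6.74 FPKM in CD4SP cells. Both Cxcr6 values lie above their own summed intervals (20.2 to 22.2 in CD8SP and 4.71 to 5.78 in CD4SP cells), so its levels are uncertain. Il2rb, a chain of the receptors for interleukin-2 and interleukin-15, had 35.3 FPKM in CD8SP cells and 12.2 FPKM in CD4SP cells. Cd44 had 3.54 FPKM in CD8SP cells and 8.03 FPKM in CD4SP cells, and Il18r1 was the fifth called gene, higher in CD4SP cells. Cxcr6 and Il2rb were thus higher in the other lineage than Zbtb16 and Il17rb. Among the highest uncalled genes were Cd160 (6.39 FPKM in CD8SP and 3.16 in CD4SP cells) and Il12rb2 (2.92 FPKM in CD8SP and 1.65 in CD4SP cells). Cd160, at a log2 ratio of 0.99, was just under the fold rule. By exons it was over the rule, with 5.74 FPKM in CD8SP cells and 1.94 FPKM in CD4SP cells.

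Of 22 regulator genes, 21 reached 1 FPKM, 1 was called higher in CD8SP cells and 4 higher in CD4SP cells. Over all genes, 9.99% were called higher in CD8SP cells and 4.76% higher in CD4SP cells. The median log2 ratio of the 21 was -0.50, against 0.22 over all genes tested. Zbtb7b, which encodes the helper lineage factor ThPOK, had 0.0606 FPKM in CD8SP cells and 22.5 FPKM in CD4SP cells. Its CD4SP value lies below its own summed interval (28.5 to 33.7). Maf had 0.195 FPKM in CD8SP cells and 1.28 FPKM in CD4SP cells. Runx1 had 7.41 FPKM in CD8SP cells and 29.0 FPKM in CD4SP cells. Gata3 had 4.004 FPKM in CD8SP cells and 15.3 FPKM in CD4SP cells. Id3, an inhibitor of E proteins, was the gene called higher in CD8SP cells, and this call was lost after scaling. Conventional CD4 and CD8 thymocytes also use most of these regulators. Lef1, Tcf7 and Bcl11b, the highest uncalled genes, were between 1.46 and 1.66-fold higher in CD4SP cells. The CD4SP value of Lef1, 209 FPKM, lies below its own summed interval (229 to 241), so its fold is uncertain.

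Of 15 genes of the interleukin-25 receptor pathway, 7 reached 1 FPKM and none was called, against 14.8% over all genes. The median log2 ratio of the 7 was 0.35, or 0.14 after scaling. Il17ra, the partner chain of the product of Il17rb, had 31.5 FPKM in CD8SP cells and 19.5 FPKM in CD4SP cells, the opposite order to Il17rb. Nfkbiz had 13.3 FPKM in CD8SP cells and 19.0 FPKM in CD4SP cells, and Map3k7 had 9.65 FPKM in CD8SP cells and 13.8 FPKM in CD4SP cells. The ligand genes Il25 and Il17b were listed at 0 in both lineages. Of 10 genes of PLZF cofactors, all reached 1 FPKM and 1 was called, against 14.8% over all genes. The called one was the Polycomb gene Bmi1, with 5.01 FPKM in CD8SP cells and 10.5 FPKM in CD4SP cells. In the exon-based value Bmi1 had 8.01 FPKM in CD8SP cells and 9.59 FPKM in CD4SP cells, and its call was lost. The median log2 ratio of the 10 was 0.12, or -0.10 after scaling. Cul3, Ncor1 and Hdac7, the highest uncalled genes, were 1.13, 1.04 and 1.91-fold higher in CD8SP cells.

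**Figure D4:**
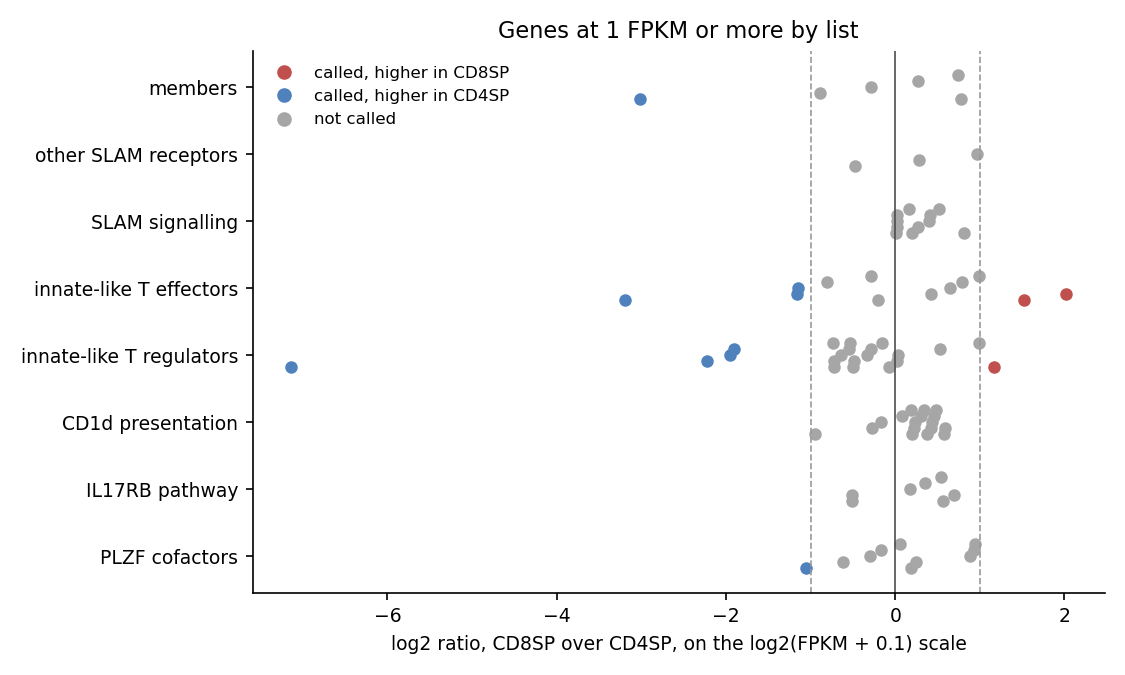
Log2 ratio of CD8SP over CD4SP for the genes at 1 FPKM or more, each point a gene, by list, with called genes red where higher in CD8SP and blue where higher in CD4SP cells. Dashed lines mark the fold rule, and Il17rb, at -3.02, is the 1 called member.

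Markers of the sorted lineages followed the labels, and T cell genes were high in both. Cd4 had 1.69 FPKM in CD8SP cells and 107 FPKM in CD4SP cells, and Cd8a had 241 FPKM in CD8SP cells and 10.9 FPKM in CD4SP cells. All 9 T cell markers reached 1 FPKM, and the 3 called were the coreceptor genes. The share called over all genes at this level was 14.8%. Counts of called genes in this and the following marker lists are not read as a result about them. The 5 markers of type 2 innate lymphoid cells, which also use Il17rb, summed to 0.0294 FPKM in CD8SP cells and 0.670 FPKM in CD4SP cells, with Il5 and Klrg1 listed at 0 in CD8SP cells and none at 1 FPKM. The 7 natural killer markers summed to 2.51 FPKM in CD8SP cells and 3.67 FPKM in CD4SP cells, and 2 were called, Eomes (2.28 in CD8SP and 0.261 in CD4SP cells) and Klre1 (0.208 in CD8SP and 2.65 in CD4SP cells). Of these, Ncr1 was listed at 0 in both lineages and Klra8 and Tyrobp at 0 in CD8SP cells. In the exon-based value Tyrobp turned, with 0.876 FPKM in CD8SP cells and 0.264 FPKM in CD4SP cells. The 5 regulatory T markers summed to 25.6 FPKM in CD8SP cells and 25.2 FPKM in CD4SP cells, and Foxp3, Il2ra and Nrp1 were called higher in CD4SP cells. Ikzf2, the largest of these markers, went the other way without a call, with 21.1 FPKM in CD8SP cells and 12.5 FPKM in CD4SP cells. The part of these cells in the values of Il17rb and Zbtb16 was not tested.

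Genes that mark other blood cells were also listed, and their calls stand against the same 14.8% over all genes. The 8 B cell markers summed to 5.65 FPKM in CD8SP cells and 0.783 FPKM in CD4SP cells, nearly all from Cd79b, which was called, while Cd79a and Pax5 were listed at 0 in both lineages. In the exon-based value Cd79a had 0.248 FPKM in CD8SP cells and 7.05 FPKM in CD4SP cells, opposite in direction to Cd79b. The 9 matched of 10 myeloid and dendritic markers summed to 5.72 FPKM in CD8SP cells and 10.4 FPKM in CD4SP cells, and H2-Ab1 was called higher in CD4SP cells. The 8 double-positive thymocyte markers summed to 526 FPKM in CD8SP cells and 70.3 FPKM in CD4SP cells. Most of the CD8SP sum was the coreceptor gene Cd8b1, which was called, with 505 FPKM in CD8SP cells and 32.9 FPKM in CD4SP cells. Of the others, Rag1 (4.12 in CD8SP and 12.5 FPKM in CD4SP cells) and Arpp21 (2.07 in CD8SP and 5.54 FPKM in CD4SP cells) were called higher in CD4SP cells, and Dntt, at 11.2 FPKM in CD8SP cells and 13.9 FPKM in CD4SP cells, was not called. Double-positive thymocytes carry CD1d and SLAM receptors too, and their part in the values of Slamf1, Slamf6, Ly9 and Cd1d1 was not tested.

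No splicing event of the 8 genes had both forms in RefSeq, since each gene had 1 RefSeq transcript in the files, so 0 events could be tested where 18.1% of 3120 were called over all genes. With assembled forms, 52 events reached a summed 1 FPKM in both lineages and 14 differed by at least 20 percentage points, against 18.3% over all genes. Of the 14, 10 were in Slamf6, and in 1 of the 14 were both forms above 0 in both files. Among splice sites with a choice of partners annotated in GENCODE, 5 could be compared and 1 differed by at least 20 points, the donor of Slamf6 exon 7, against 18.6% over all genes. With every partner intron, 5 of 24 differed, against 15.1%. Events of a gene share transcripts and are not independent, so these counts are not read as a result about the genes. The Slamf6 choice is reported for its size and its coding ends.

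The long-read tables held 9476 isoforms for CD8SP and 8289 for CD4SP cells, and Ly9 was the member with any. It had 1 isoform per library, each with all 10 exons of the annotated transcript ENSMUST00000068878 and the same open reading frame of 654 codons. The isoform was 2396 bases in CD8SP cells and 2429 bases in CD4SP cells, against 2488 bases in the annotation. The genomic window after its 3′ end was 75% A in CD8SP cells and 30% A in CD4SP cells. Among genes at 5 to 40 FPKM, 38.7% had a long-read isoform in CD8SP cells and 33.7% in CD4SP cells, and 1 of the 5 members in that range had one in each library. No long-read isoform was listed for Slamf6, so its tail choice rests on short reads alone.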

How the data were processed

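Mature CD8SP and CD4SP thymocytes were measured by rRNA-depleted short-read and PacBio long-read sequencing. The deposited short-read files list RefSeq and assembled transcripts, 1 pooled file per lineage, and the FPKM and interval of each stand there among other text attributes, per the file headers. The deposited long-read tables give, per the file headers, isoform length, exons and the percent of A beyond the 3′ end. Tools named in the submitters' processing notes were Cufflinks 2.1.1, TopHat2 2.0.14, RSEM 1.3.1, GSNAP, Trimmomatic and FastQC on GRCm38, without roles. The sources used here do not give the reads per library, so depth is unknown. The deposited chained TPM table was not used here.

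FPKM and intervals were summed per gene with Python over 30604 RefSeq identifiers, 29457 of them matched to a symbol of GRCm38.p6, and assembled transcripts sharing an intron with that gene only. In 5.19% of RefSeq transcripts of CD8SP and 4.89% of CD4SP cells the FPKM lies outside its own interval. Gene sums can do so too, and those of Lck, B2m and Ncor1 lie below their summed intervals in both lineages. The exon-based value weights transcripts of at least 200 bases by the share of RefSeq exon bases they cover. Spliced-in percentages come from summed FPKM, tested at 1 FPKM in both lineages. The call rule and the spliced-in percentages were tested on simulated data made without noise. That checks the arithmetic only and gives no error rate for 1 pool per lineage. Named genes are the 8 members and, from each list, up to 4 called genes with the largest log2 ratio and the 3 uncalled ones with the highest FPKM. The members and lists were chosen with earlier results of these data known. A transcript listed at 0 can be one whose estimate failed. A listed gene, and the marker list that rests on it, are not reported here.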

Additional observations from a re-analysis of the deposited data

How the results depend on the processing

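No paired analysis was possible because the lanes of each lineage are pooled in 1 file, and no replicate could be left out. Il17rb was called, higher in CD4SP cells, under all 10 alternatives for gene values. Without a minimum FPKM 2 members were called, the other being Zbtb16, and after scaling 2 were called, the other being Slamf1, where 1290 of 9535 genes were called in all. Over all genes, 877 were called with a pseudocount of 1 and 2317 without a minimum, against 1419. Over the 7 pathway lists, 11 of 81 genes tested were called, 7 of 81 with a pseudocount of 1 and 20 of 71 with RefSeq transcripts only. Over all genes the same settings gave 1419 of 9615, 877 of 9615 and 1710 of 8316. Splicing events of the members went from 0 annotated to 14 with assembled forms. Splice-site choices, added after seeing the data as was the intron-based value, gave 1 and 5. Without isoforms followed by at least 60% A, 1 long-read isoform was left, from CD4SP cells, against 2. The direction turned for Cd1d1, Slamf6 and Sh2d1a with RefSeq transcripts only, and for Cd1d1 in the exon-based value. The cause of these changes was not tested.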
